A study of Mus musculus with 8 samples.

Results

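The genes described here encode myosin light chains and the kinases that phosphorylate them. They were chosen by symbol: Myl1, Myl2, Myl3, Myl4, Myl6, Myl6b, Mylpf, Mylk2 and Mylk4. All 9 were found among the 16382 named genes of each library, and all 9 were tested. RNA was measured by sequencing of polyA-selected libraries from whole frozen soleus muscle of 4 Megf10 KO and 4 WT mice, all female and 7 months old, with 1 library per mouse. Megf10 KO mice were homozygous for a constitutive allele that lacks exon 4 of Megf10, which encodes a transmembrane receptor of satellite cells. The WT mice carried intact Megf10 and no treatment is named for either group. Whether the mice were littermates, and at which of the study's animal houses they were raised, is not given in the sources used here.

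A myosin molecule has a pair of heavy chains, and each heavy chain neck binds an essential and a regulatory light chain. Muscle fibers draw these from gene families whose members differ between slow, fast, embryonic and non-muscle myosin. Phosphorylation of the regulatory light chain by a calcium- and calmodulin-dependent kinase raises the force of a twitch in fast skeletal muscle. The soleus, a calf muscle that holds posture, is built mainly of slow type I fibers and fast type IIa fibers.

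Megf10 itself was low in each library labelled KO, with 1.55, 7.76, 1.12 and 11.1 normalized counts for KO replicates 1 to 4, against 63.0, 57.1, 69.7 and 70.04 for WT replicates 1 to 4. KO over WT gave a log2 fold change of -3.75 (SE 0.545, limma, BH-adjusted p = 0.00343). Recovered depth was 26.0 to 37.8 M reads in KO and 36.8 to 41.6 M in WT, so 3 KO libraries were shallower than every other library. KO replicates 2 and 3 also stood apart by type IIb Myh4, with 18638 and 43384 normalized counts where no other library passed 3625, and results without them are given beside the heavy chains. The defining genes of the labelled tissue were abundant in every library: the slow heavy chain Myh7 had 652676 to 688467 normalized counts in KO and 523820 to 675603 in WT. A normalized count is the number of reads of a gene after the authors' scaling for depth and transcript length, and it is not divided by gene length. BH stands for Benjamini-Hochberg adjustment over all genes tested.

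Of the 9 genes, 3 were called higher in KO soleus (Myl4, Myl6 and Myl6b), 1 was called lower (Myl3), and 5 did not pass (Myl1, Myl2, Mylpf, Mylk2 and Mylk4). The same 4 called genes were those in which the KO and WT libraries did not overlap. As the background, of the 16382 genes, limma called 8.95% at an adjusted p under 0.05, 5.16% as higher and 3.79% as lower in KO, and in 17.2% the KO and WT libraries did not overlap. An alternative setting, called library size alone, rescaled the normalized counts of each library to a common total and kept the scaling for transcript length. It split the called genes into 1279 higher and 321 lower, in place of 845 and 621. The median log2 fold change was 0.06 over the 9 genes, beside -0.01 over all genes tested. All 4 called genes encode essential light chains, and neither muscle regulatory light chain nor either kinase passed. In bulk muscle, fewer cells of a type and less RNA per cell cannot be told apart.

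The promoter windows of the 4 called genes are shown because these are the light chains that changed. Each is the RefSeq window of build GRCm38.p6, with 250 bases before and 50 after an annotated start, and RefSeq had such windows for 8 of the 9 genes. Capitals mark matches on either strand to an E-box (CANNTG), which muscle bHLH factors bind and of which CAGCTG is one form, to a MEF2 site or to a CArG box, the site of serum response factor.
Myl4, chr11:104550413-104550712, plus strand: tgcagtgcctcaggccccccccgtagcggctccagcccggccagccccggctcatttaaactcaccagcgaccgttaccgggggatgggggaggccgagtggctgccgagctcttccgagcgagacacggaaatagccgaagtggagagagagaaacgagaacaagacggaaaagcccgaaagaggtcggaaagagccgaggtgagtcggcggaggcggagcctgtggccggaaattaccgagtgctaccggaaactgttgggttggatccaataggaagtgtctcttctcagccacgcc
Myl6b, chr10:128498636-128498935, minus strand: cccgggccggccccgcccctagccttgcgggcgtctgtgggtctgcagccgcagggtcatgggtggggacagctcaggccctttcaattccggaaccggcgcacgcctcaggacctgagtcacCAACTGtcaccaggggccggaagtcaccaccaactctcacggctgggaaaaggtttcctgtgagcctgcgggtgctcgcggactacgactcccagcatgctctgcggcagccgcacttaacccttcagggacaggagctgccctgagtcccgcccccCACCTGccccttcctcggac
Myl6, chr10:128492960-128493259, minus strand: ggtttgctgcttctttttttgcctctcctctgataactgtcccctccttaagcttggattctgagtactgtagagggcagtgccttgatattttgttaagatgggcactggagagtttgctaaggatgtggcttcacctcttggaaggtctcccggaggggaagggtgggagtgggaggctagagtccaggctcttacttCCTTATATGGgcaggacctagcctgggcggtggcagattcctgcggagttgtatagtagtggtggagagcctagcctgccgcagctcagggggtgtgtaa
Myl3, chr9:110763428-110763727, plus strand: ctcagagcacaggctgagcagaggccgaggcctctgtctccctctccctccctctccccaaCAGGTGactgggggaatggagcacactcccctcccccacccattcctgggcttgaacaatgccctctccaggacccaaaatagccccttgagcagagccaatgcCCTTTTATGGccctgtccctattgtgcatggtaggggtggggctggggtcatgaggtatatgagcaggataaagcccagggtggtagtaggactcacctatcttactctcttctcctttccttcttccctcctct

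The Myl4 window held no match to any of these motifs, and the files do not tell from which of its annotated starts Myl4 was transcribed. The Myl6b window held 2 E-boxes and no CAGCTG. The Myl6 window had 1 CArG box, and the window of a second annotated Myl6 start held 1 E-box and no CArG box. The Myl3 window had 1 E-box and 1 CArG box. Of the 32851 mouse promoter windows of this length, 72.3% held an E-box, 16.3% CAGCTG, 3.19% a MEF2 site and 1.63% a CArG box. Among the other genes, the Myl1 window and the Mylpf window each held 1 CAGCTG, both Myl2 windows held CAGCTG, and the Mylk4 window held CAGCTG and the only MEF2 match of the set. Myl6b and Myl6 are neighbours on chromosome 10, with Myl6b upstream of Myl6 on the same strand. A match describes these letters and no more.

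Set per kilobase of transcript, the slow chains Myl3 and Myl2 were the most abundant of the 9 in both genotypes. This scale divides normalized counts by the longest principal GENCODE M21 transcript, from 665 bases for Myl6 to 5571 bases for Mylk4. In KO libraries the order was Myl2 (mean 156062), Myl3 (147582), Myl1 (71920), Mylpf (59552), Myl6b (5940), Myl6 (5659), Mylk2 (3162), Myl4 (2053) and Mylk4 (391). In WT libraries it was Myl3 (181298), Myl2 (140854), Myl1 (70036), Mylpf (62242), Myl6 (4500), Myl6b (3136), Mylk2 (3057), Mylk4 (415) and Myl4 (374). In KO, Myl2 and Myl3 overlapped over the libraries, as did Myl6b and Myl6. In WT, Myl3 lay above Myl2 in all libraries (170942 to 190016 against 121075 to 161309 per kilobase), while Myl1 and Mylpf overlapped, as did Myl6 and Myl6b, Myl6b and Mylk2, and Mylk4 and Myl4. Myl4 was thus below Mylk2 and above Mylk4 in every KO library, and its WT range of 345 to 410 per kilobase lay within that of Mylk4.

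The essential light chain Myl4, made in embryonic skeletal muscle and in the adult atrium, rose in Megf10 KO soleus. KO replicates 1 to 4 had 2117, 1782, 2638 and 1207 normalized counts, against 325, 365, 386 and 333 in WT replicates 1 to 4. Each KO library was above each WT library, and the KO libraries were spread more widely than the WT libraries. Means were 1936 ± 600 in KO and 352 ± 28.4 in WT (SD, n = 4 each), a 5.28-fold change on the log2(normalized count + 1) scale. The log2 fold change was 2.40 (SE 0.196, 95% interval 1.97 to 2.84, limma, BH-adjusted p = 0.000434), the third smallest p of all 16382 genes. Myl4 was called under each of the 18 alternative settings, with a log2 fold change between 2.18 and 2.66. As a description on the per-kilobase scale, Myl4 made 0.882 ± 0.280% of the 5 essential light chain genes in KO and 0.144 ± 0.00550% in WT (SD, n = 4 each).

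**Figure D1:**
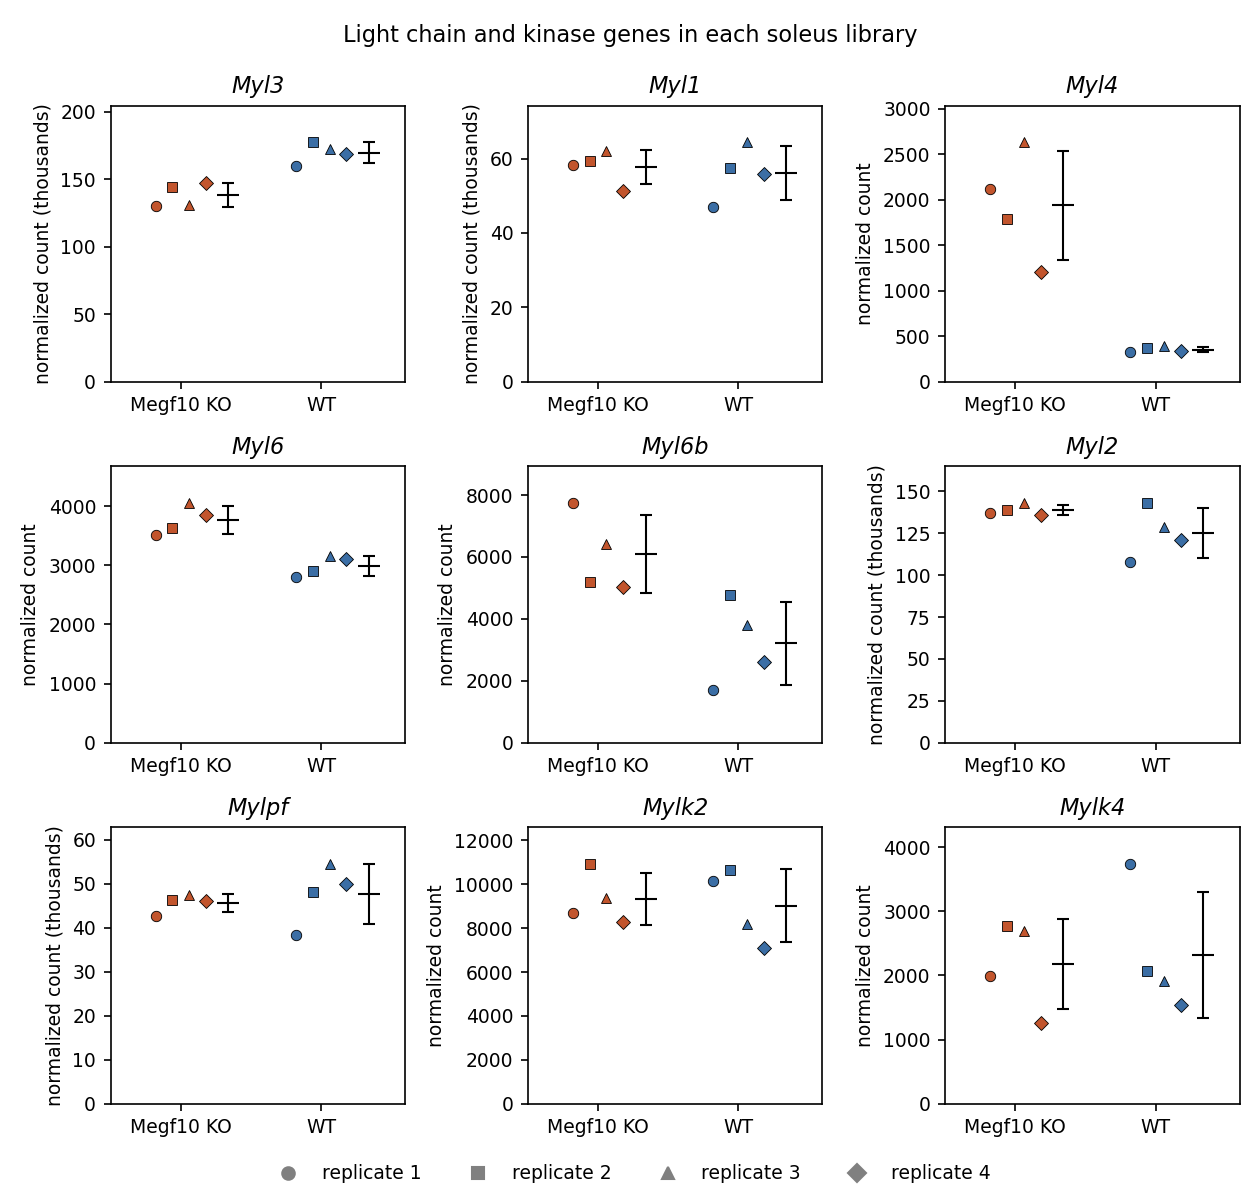
Normalized count of each of the 9 genes (vertical axes from 0, scaled where marked) in the 4 Megf10 KO and the 4 WT libraries, with 1 symbol per replicate number and the mean ± SD at the right of each group. Myl4, Myl6 and Myl6b lie higher and Myl3 lower in every KO library than in any WT library, and the other 5 genes overlap.

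The slow essential light chain Myl3, shared by slow skeletal fibers and the cardiac ventricle, was the one light chain called lower in KO. KO replicates 1 to 4 had 129986, 144324, 131280 and 147549 normalized counts, against 160173, 178045, 172243 and 169043 in WT replicates 1 to 4. The highest KO library lay below the lowest WT library. The log2 fold change was -0.30 (SE 0.0671, 95% interval -0.45 to -0.15, limma, BH-adjusted p = 0.0217), or 0.813 of the WT level. The direction held under all 18 alternatives, but the call held in 10. It was lost without KO replicate 1, KO replicate 3 or WT replicate 4 (limma, BH-adjusted p = 0.0615, 0.0764 and 0.0573) and under library size alone (limma, BH-adjusted p = 0.0560).

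The fast essential light chain gene Myl1, which yields the long and the short fast essential chain from separate starts, did not pass. It had 58270, 59422, 62134 and 51180 normalized counts in KO and 46958, 57570, 64587 and 55841 in WT replicates 1 to 4. The groups overlapped, and the 95% interval of its log2 fold change ran from -0.17 to 0.26 (estimate 0.04, limma, BH-adjusted p = 0.821). The files sum its transcripts, so the long and short forms were not told apart. Of the 31-base words in the annotated Myl1 transcripts, 14.5% also occur in the pseudogene Mylf-ps, which is not among the named genes, so reads may be shared with it.

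The non-muscle essential light chain Myl6, which serves non-muscle and smooth muscle myosin, rose in KO. KO replicates 1 to 4 had 3519, 3630, 4059 and 3845 normalized counts, against 2804, 2899, 3160 and 3108 in WT replicates 1 to 4. No KO library overlapped the WT range, and the log2 fold change was 0.33 (SE 0.0681, 95% interval 0.18 to 0.48, limma, BH-adjusted p = 0.0151). Without KO replicate 3 the adjusted p was 0.0530. The summed normalized counts of 7 macrophage markers were 5602 to 7131 in KO and 2712 to 3886 in WT, with 5 of 7 called higher, among them Lyz2, Cd74, C1qa and Cd68 (log2 fold changes 0.84, 1.25, 0.82 and 0.78). Those of 5 fibroblast markers were 20496 to 30182 in KO and 16331 to 18799 in WT, with 2 of 5 called higher, the collagens Col3a1 (1.12) and Col1a1 (0.64). The fibroblast markers Dcn, Pdgfra and Lum did not pass (log2 fold changes 0.05, 0.37 and 0.44, limma, BH-adjusted p = 0.777, 0.174 and 0.0698). The summed normalized counts of 4 endothelium markers were 7602 to 9347 in KO and 9216 to 10875 in WT, with Cdh5 called lower (-0.38). Of 18 alternatives, Lyz2 and Col3a1 were called in 17, Cd74 and C1qa in 16, Col1a1 in 10, Cd68 in 9 and Cdh5 in 5. No marker of the macrophage and fibroblast lists was at 0 in any library, and the part of these 3 cell types in the Myl6 result was not tested. For 7 smooth muscle markers none was called, with sums of 144155 to 205858 in KO and 152046 to 165183 in WT, most of which were Des, a gene that skeletal fibers also express. Of the 31-base words of Myl6 transcripts, 11.4% are shared with other annotated genes, most with the pseudogene Gm5526, which is not among the named genes.

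Myl6b, an essential light chain of slow skeletal and non-muscle myosin, was higher in every KO library, but the spread was wide. KO replicates 1 to 4 had 7757, 5191, 6407 and 5023 normalized counts, against 1707, 4771, 3788 and 2605 in WT replicates 1 to 4. The lowest KO library exceeded the highest WT library by only a small step, and WT replicate 1 was far below WT replicate 2. The log2 fold change was 1.00 (SE 0.272, 95% interval 0.40 to 1.60, limma, BH-adjusted p = 0.0453). The call held in 6 of 18 alternatives. Of the fits without 1 library it held only without WT replicate 2 (log2 fold change 1.23, limma, BH-adjusted p = 0.0170), and without any other library the adjusted p lay between 0.0607 and 0.113. Myl6b and Myl6 share 22 words of 31 bases, of 1854 in Myl6b.

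The slow regulatory light chain Myl2, which is also the ventricular one, did not pass. It had 137192, 138682, 143059 and 136022 normalized counts in KO and 107636, 143404, 128960 and 120876 in WT replicates 1 to 4. WT replicate 2 was the highest of all 8 libraries and the other WT libraries were below every KO library. The log2 fold change was 0.16 (95% interval -0.03 to 0.34, limma, BH-adjusted p = 0.277). The coefficient of variation was 2.22% in KO and 12.0% in WT.

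The fast regulatory light chain Mylpf did not pass either, with 42678, 46304, 47382 and 46103 normalized counts in KO and 38295, 47986, 54556 and 49873 in WT replicates 1 to 4. The KO libraries all lay within the WT range. Its log2 fold change was -0.05 (95% interval -0.27 to 0.16, limma, BH-adjusted p = 0.781), and it changed sign under library size alone.

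**Figure D2:**
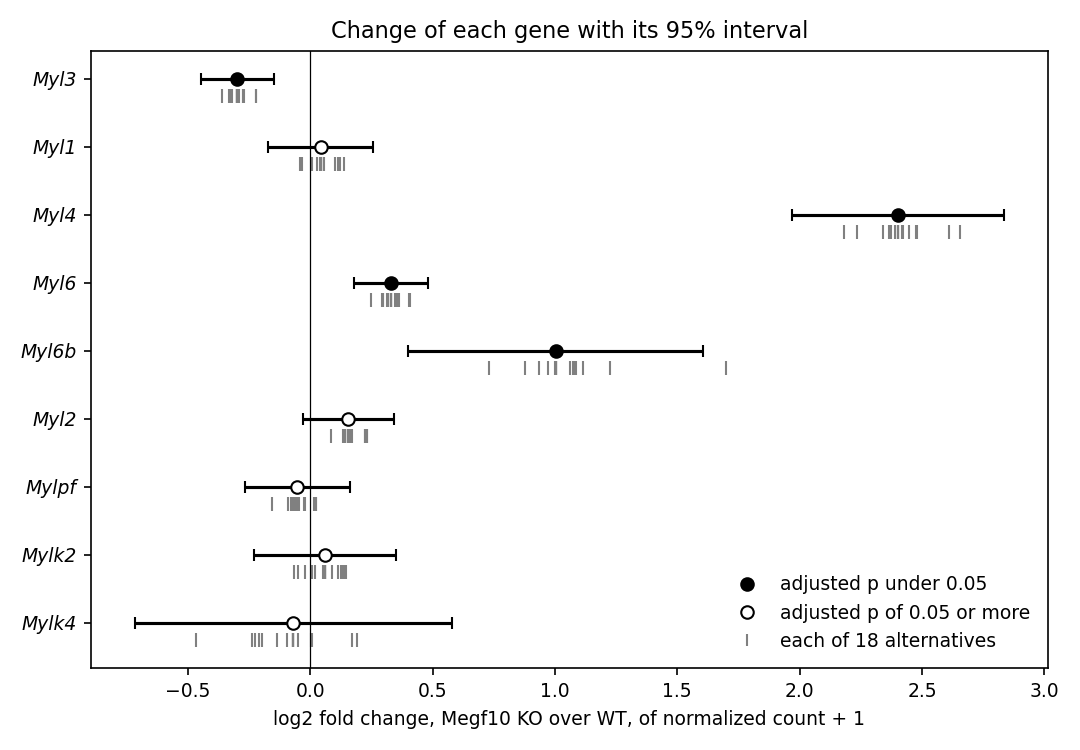
Log2 fold change of Megf10 KO over WT of normalized count + 1 for each gene (horizontal axis), with the 95% interval from limma; filled points passed an adjusted p of 0.05 and grey ticks are the values under the 18 alternatives. Myl4 stands at 2.40, and the intervals of Myl1, Myl2, Mylpf, Mylk2 and Mylk4 include 0.

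Mylk2, the calcium- and calmodulin-dependent light chain kinase of skeletal muscle, did not pass. It had 8711, 10949, 9384 and 8277 normalized counts in KO and 10172, 10634, 8183 and 7091 in WT replicates 1 to 4. The groups overlapped over most of their range, and the 95% interval of the log2 fold change was -0.23 to 0.35 (estimate 0.06, limma, BH-adjusted p = 0.819).

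Mylk4, a further member of the light chain kinase family, varied most between libraries of 1 genotype. It had 1990, 2768, 2698 and 1254 normalized counts in KO and 3744, 2064, 1909 and 1534 in WT replicates 1 to 4. WT replicate 1 was the highest of all 8 libraries and KO replicate 4 the lowest. The coefficient of variation was 32.6% in KO and 42.4% in WT, and the log2 fold change of -0.07 (95% interval -0.72 to 0.58, limma, BH-adjusted p = 0.910) changed sign without WT replicate 1 (0.19) or KO replicate 4 (0.17). Changes of Mylk4 in either direction within this interval cannot be told from no change with these libraries.

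WT replicate 1 was the lowest WT library for all 7 light chain genes among the 9, while it was the lowest WT library for 27.7% of all genes. The pattern was not particular to these genes. WT replicate 1 was also the lowest for the heavy chains Myh7, Myh1 and Myh3 and the slow troponins Tnni1, Tnnt1 and Tnnc1. WT replicate 1 was not the lowest for Myh2, for the fast troponins Tnnt3, Tnni2 and Tnnc2, or for the other light chain genes Myl12a, Myl9 and Myl10. Without it the log2 fold change was -0.04 for Myl1, 2.36 for Myl4 and 0.30 for Myl6, and it was -0.33 for Myl3, so the 3 called genes among these 4 kept their call. Myl6b moved most, to 0.73 with a BH-adjusted p of 0.0607 from limma. With the recovered depth of each library as a covariate, Myl4 was the only one of the 9 genes called (log2 fold change 2.66, limma, BH-adjusted p = 0.0220). Myl3, Myl6 and Myl6b then had -0.36, 0.25 and 1.70 (limma, BH-adjusted p = 0.224, 0.388 and 0.0987). Depth differed between the genotypes, so its part and that of genotype cannot be told apart beyond these fits.

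Ratios of 2 genes within a library do not depend on a factor that all genes of that library share. The authors' scaling for transcript length differs by gene and stays in the ratios. For 8 pairs of the genes the mean log2 ratio was compared between KO and WT by an exact two-sided permutation test over the 8 libraries, whose smallest possible p is 0.0286, with Benjamini-Hochberg adjustment over the 8 pairs. For the slow pair, log2 Myl3/Myl2 was -0.08, 0.06, -0.12 and 0.12 in KO replicates 1 to 4, against 0.57, 0.31, 0.42 and 0.48 in WT. The groups did not overlap, and the difference was -0.45 (SE 0.0789, exact permutation p = 0.0286, adjusted 0.0762). Myl4/Myl3 and Myl4/Myl1 also reached the smallest p, with differences of 2.70 (SE 0.283) and 2.36 (SE 0.190) and an adjusted exact permutation p of 0.0762 each. With 8 pairs, 3 at the smallest p are not enough to pass an adjusted threshold of 0.05.

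The other 5 pairs overlapped between genotypes. Log2 Myl3/Myl1, slow over fast essential chain, differed by -0.34 (SE 0.122, exact permutation p = 0.0571, adjusted 0.0914). Log2 Myl2/Mylpf, slow over fast regulatory chain, differed by 0.21 (SE 0.0864, exact permutation p = 0.0571, adjusted 0.0914). The differences were 0.10 for Myl1/Mylpf, 0.67 for Myl6b/Myl6 and -0.13 for Mylk4/Mylk2, with adjusted exact permutation p of 0.261, 0.190 and 0.686. The estimates for the slow essential and the slow regulatory chain against their fast counterparts had opposite signs, and neither passed.

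On the per-kilobase scale, the 5 essential chain genes together stood at 1.04 to 1.11 times the 2 regulatory chain genes in KO libraries and at 1.21 to 1.38 times in WT libraries. Within the essential chains Myl3 took 60.2 to 67.5% in KO and 67.3 to 72.5% in WT, and Myl1 took 27.3 to 33.3% in KO and 24.8 to 29.5% in WT. Within the regulatory chains Myl2 took 71.8 to 73.5% in KO and 67.1 to 72.0% in WT. These shares are descriptions, they leave out Myl12a, Myl12b and Myl9, and they depend on the transcript length chosen for each gene.

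The heavy chains that these light chains bind moved in part. Of 10 sarcomeric heavy chain genes 1 rose and 2 fell, and the members that passed were embryonic Myh3, type IIa Myh2 and Myh13, a heavy chain of extraocular muscle. Myh13 had a log2 fold change of -0.89 (limma, BH-adjusted p = 0.0164). Myh3 was called in 18 of 18 alternatives, Myh2 in 17 and Myh13 in 14. Without KO replicates 2 and 3 together Myh13 lost its call, while Myh3 and Myh2 kept theirs. Myh3 had 8845, 7594, 9886 and 5877 normalized counts in KO and 1342, 2259, 1450 and 1883 in WT replicates 1 to 4, a change of 2.22 on the log2 scale (SE 0.185, limma, BH-adjusted p = 0.000434). Myh2 had 276934, 221374, 221465 and 283412 normalized counts in KO and 498449, 467242, 415478 and 463783 in WT, a change of -0.89 on the log2 scale (SE 0.102, limma, BH-adjusted p = 0.00144). Myh7 did not pass (log2 fold change 0.23, limma, BH-adjusted p = 0.134), nor did the type IIx gene Myh1 (-0.05) or perinatal Myh8 (0.21). Type IIb Myh4 had 930, 18638, 43384 and 460 normalized counts in KO and 746, 911, 818 and 3625 in WT (log2 fold change 1.86, limma, BH-adjusted p = 0.400).

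Myl4 and Myh3 had the same order over the KO libraries: both were highest in KO replicate 3, then replicate 1, replicate 2 and replicate 4. In WT libraries their orders differed. Log2 Myl4/Myh3 was -2.06, -2.09, -1.91 and -2.28 in KO and -2.04, -2.63, -1.91 and -2.50 in WT, which overlapped, with a difference of 0.18 (SE 0.191). Mylk4 was highest among KO libraries in replicates 2 and 3, the libraries with high Myh4, but among WT libraries it was lowest in replicate 4, which had the highest Myh4. Without KO replicates 2 and 3 together, Myl4 had a log2 fold change of 2.18 (limma, BH-adjusted p = 0.0165) and Myl3, Myl6 and Myl6b were no longer called (-0.29, 0.30 and 1.06, limma, BH-adjusted p = 0.141, 0.125 and 0.187).

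**Figure D3:**
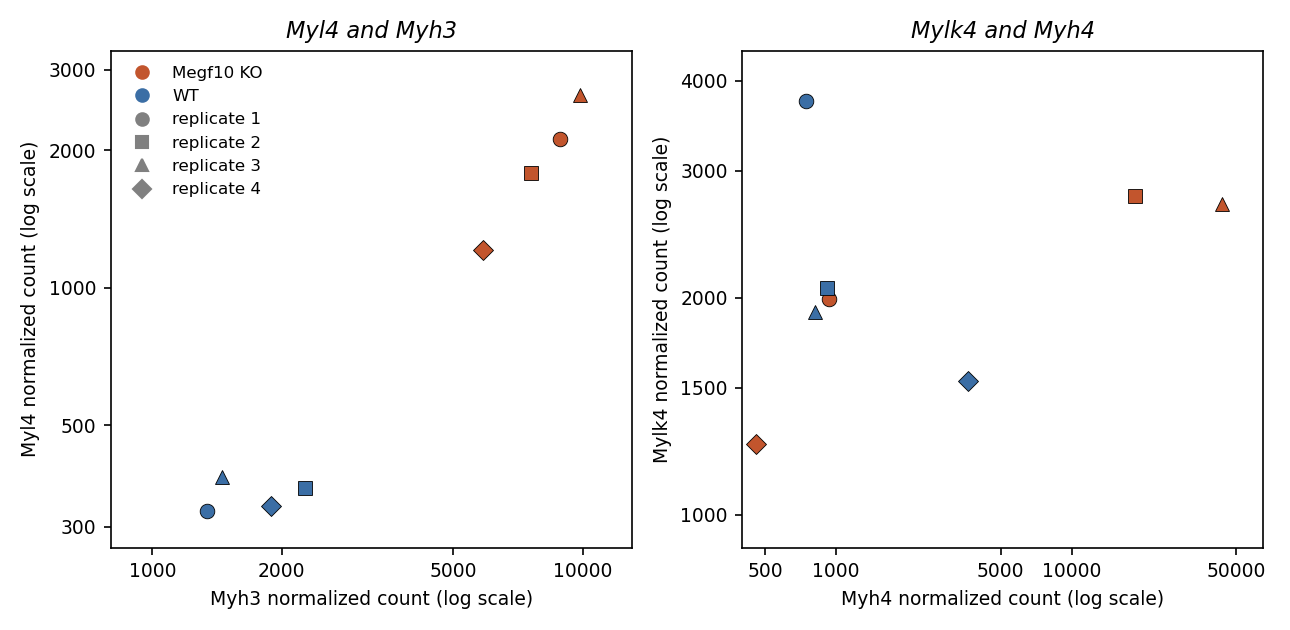
Left, Myl4 against embryonic Myh3, and right, Mylk4 against type IIb Myh4, as normalized counts on log axes in each of the 8 libraries, with Megf10 KO and WT by colour and replicate number by symbol. The 4 KO libraries lie together at high Myl4 and Myh3, and KO replicates 2 and 3 have the highest Myh4 while Mylk4 is highest in WT replicate 1.

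Of 12 fast fiber genes 7 fell and none rose, among them the calcium pump Atp2a1 (log2 fold change -0.72) and the fast troponins Tnnt3 (-0.68), Tnni2 (-0.62) and Tnnc2 (-0.45), whereas Myl1 and Mylpf did not pass. The fast genes Actn3, Mybpc2 and Pvalb had estimates above 0 (log2 fold changes 0.90, 0.98 and 0.57) and had adjusted p of 0.357, 0.444 and 0.583 from limma. Tnnc2 lost its call when KO replicates 2 and 3 were both left out. For 6 ratios to Tnnt3 and to heavy chains, which were chosen after the values were seen, differences are given as a description with no test. Log2 Mylpf/Tnnt3 differed by 0.63 (SE 0.105), log2 Mylpf/Myh2 by 0.83 (SE 0.201) and log2 Myl1/Myh2 by 0.93 (SE 0.210), KO minus WT. In each of the 3 ratios every KO library was above every WT library, with denominators that were themselves called lower in KO.

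Ratios to the slow heavy chain Myh7 are likewise a description. Log2 Myl3/Myh7 was -2.33, -2.25, -2.35 and -2.19 in KO replicates 1 to 4, against -1.71, -1.92, -1.72 and -1.64 in WT. The groups did not overlap, and the difference was -0.53 (SE 0.0703). Log2 Myl2/Myh7 was -2.25, -2.31, -2.23 and -2.31 in KO and -2.28, -2.24, -2.14 and -2.13 in WT, which overlapped, a difference of -0.08 (SE 0.0434). Of 12 slow fiber genes 4 rose and none fell: the calcium pump regulators Sln (log2 fold change 1.60) and Pln (0.79), the calcium store protein Casq2 (0.43) and the slow troponin Tnni1 (0.37). Sln was called in 17 of 18 alternatives, Pln in 16, Casq2 in 15 and Tnni1 in 8, and without KO replicates 2 and 3 together Sln alone of these 4 was called. Tnni1 was lost on leaving out any single library but WT replicate 2. Both the fast and the slow list leave out the light chains, and Myl3 was lower while none of these slow genes was called lower. The slow genes Mybpc1 and Myoz2 had estimates below 0, as Myl3 did (log2 fold changes -0.21 and -0.20, limma, BH-adjusted p = 0.0974 and 0.108). Estimates were above 0 for 10 of the 12 slow genes.

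**Figure D4:**
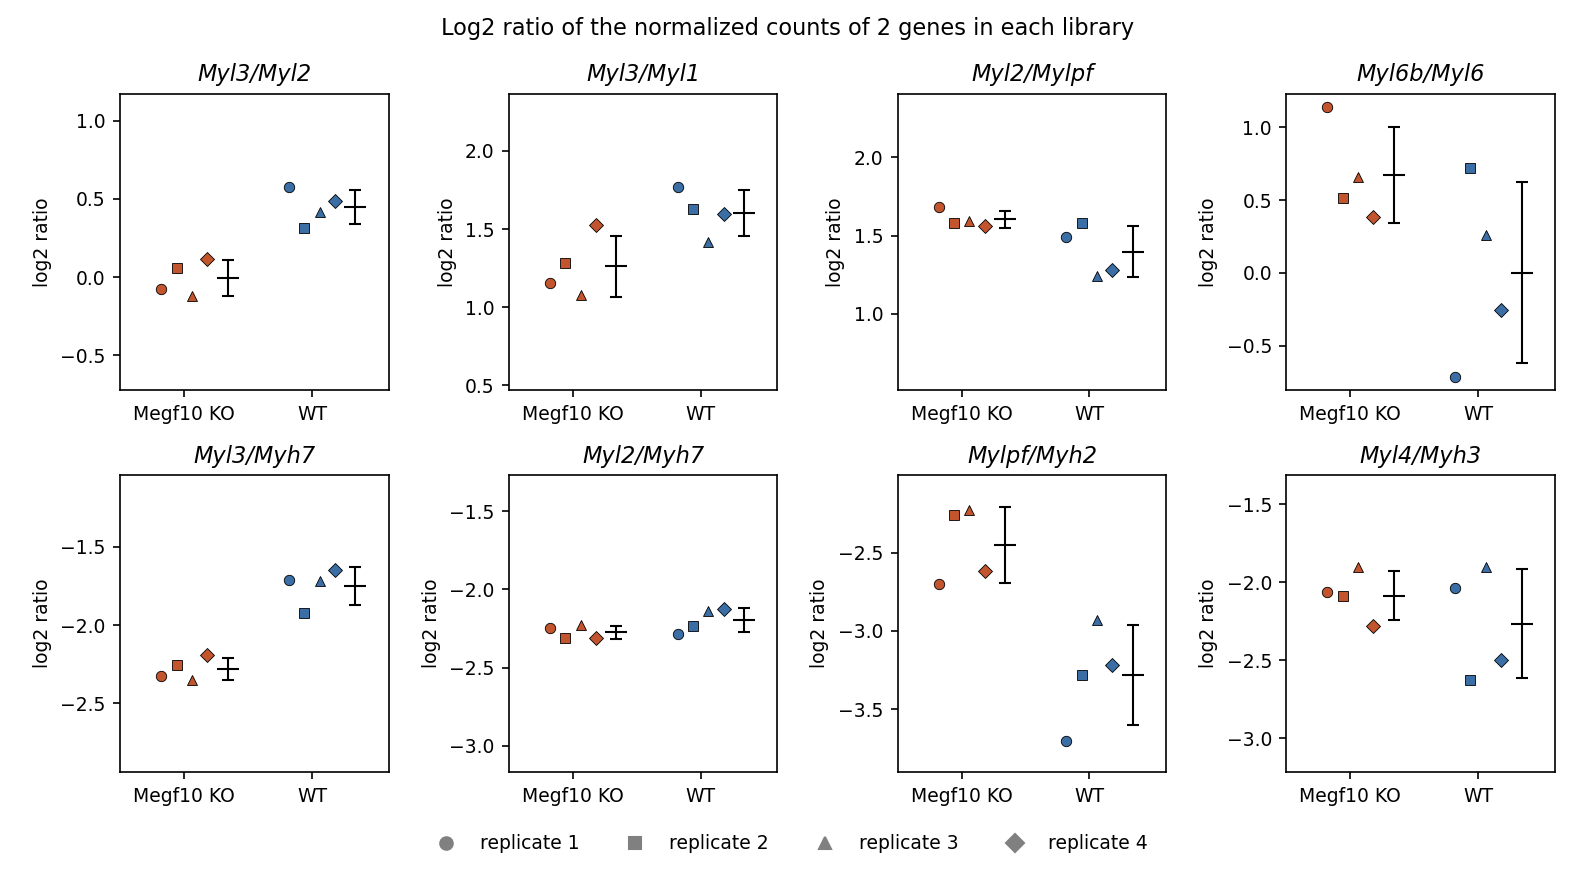
Log2 ratio of the normalized counts of 2 genes in each library (vertical axes, spans of at least 1.9 log2 units), with the 4 Megf10 KO libraries left of the 4 WT libraries, 1 symbol per replicate number and the mean ± SD beside each group. Myl3/Myl2 and Myl3/Myh7 lie lower and Mylpf/Myh2 higher in every KO library than in any WT library, while Myl3/Myl1, Myl2/Mylpf, Myl6b/Myl6, Myl2/Myh7 and Myl4/Myh3 overlap.

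Of 10 embryonic muscle genes 4 rose and none fell, beside Myl4. They were Mymk and Mymx, which fuse myoblasts (log2 fold changes 3.33 and 2.85), the cardiac and embryonic actin Actc1 (1.00) and the embryonic acetylcholine receptor subunit Chrng (1.43). Mymx was listed at 0 in 2 WT libraries and had at most 0.630 normalized counts in WT, so its fold depends on the added count of 1. None of these 4 was called without KO replicate 3 (limma, BH-adjusted p = 0.0524 for Mymk, 0.0831 for Mymx, 0.0856 for Actc1 and 0.125 for Chrng). Mymk was called in 14 of 18 alternatives, Actc1 and Chrng in 8 of 18 each, and Mymx in 8 of 17. Of the 4 cardiac markers measured, none was called. The cardiac heavy chain Myh6 had 673 to 1208 normalized counts in KO and 783 to 935 in WT. The cardiac troponin Tnni3 had 8.26 to 16.6 in KO and 4.17 to 14.9 in WT. The atrial peptide Nppa had 1.25 to 12.2 in KO and 2.61 to 4.92 in WT. The remaining cardiac marker, Ryr2, had the only negative estimate (-1.18 on the log2 scale, limma, BH-adjusted p = 0.208). KO libraries held 2.27 to 23.0 normalized counts of Ryr2, against 19.8 to 27.3 for WT libraries. The part of these genes' source in the Myl4 result was not tested. Of the satellite cell markers other than the deleted gene, Pax7 was lower in KO (log2 fold change -1.60) and was called in 13 of 18 alternatives, while Myf5 (-0.58) and Calcr (-0.58) did not pass (limma, BH-adjusted p = 0.101 and 0.373).

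Other light chain and kinase genes mostly did not pass. Of 7 tested, Mylip was lower (log2 fold change -0.65, limma, BH-adjusted p = 0.0442), a ubiquitin ligase named for its binding to regulatory light chains. It was called in 5 of 18 alternatives. The non-muscle regulatory light chain Myl12a was abundant, at 36724 ± 2489 normalized counts in KO and 31739 ± 2730 in WT (SD, n = 4 each), with a log2 fold change of 0.21 (limma, BH-adjusted p = 0.106). Its near copy Myl12b had 732 ± 130 in KO and 615 ± 53.2 in WT. Smooth muscle Myl9 had a log2 fold change of -0.23 (limma, BH-adjusted p = 0.124), and the smooth muscle and cardiac kinases Mylk and Mylk3 had -0.14 and 0.06. Of 4 non-muscle and smooth muscle heavy chain genes none was called.

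Genes that regulate the kinases or remove the phosphate mostly did not pass: of 16 phosphatase subunits, calmodulins and kinase regulators 1 rose and 1 fell. Ppp1r14c, an inhibitor of protein phosphatase 1, had 635, 942, 809 and 682 normalized counts in KO and 1188, 1198, 1353 and 1116 in WT replicates 1 to 4. Every KO library was below every WT library, and it fell by 0.67 on the log2 scale (SE 0.123, limma, BH-adjusted p = 0.00897). The call held under 17 of 18 alternatives, the exception being depth as a covariate. RNA levels do not give the phosphorylation of the light chains, which was not measured.

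As a description of which genes ran most like these, deviations from the genotype means over the 8 libraries were compared with those of 10800 genes of mean at least 100 normalized counts. The closest were Ptpn21 to Myl4 (Pearson r 0.995), Trim28 to Mylk4 (0.997), Vma21 to Myl1 (0.991), Tspan3 to Myl6b (0.988), Dlg1 to Myl6 (0.981), Klhl13 to Myl2 (0.979), Arhgap24 to Mylpf (0.976), Rilpl2 to Mylk2 (0.967) and Rgs3 to Myl3 (0.965). Each is the top of 10800 values on 8 libraries that share their scaling, and no test was made of them. Among the genes themselves, the highest values were 0.90 for Myl2 and Myl6b, 0.80 for Myl1 and Mylpf and 0.75 for Myl6 and Mylpf. Myl1 with Myl6b had 0.74, as did the kinases Mylk2 and Mylk4. Within the KO libraries alone, r was 0.20 for Myl2 and Myl6b and 0.12 for Myl1 and Mylpf, against 0.99 and 0.97 within WT. For Myl6 and Mylpf it was 0.81 in KO and 0.90 in WT, and for Myl1 and Myl6b 0.48 and 0.82. The kinases had 0.82 in KO and 0.71 in WT. Ranked among the 10800 genes by deviations over all 8 libraries, Myl6b was 38 for Myl2, Mylpf 364 for Myl1 and Mylk4 405 for Mylk2.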

How the data were processed

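The 8 deposited files hold 1 library each. Per the labels and the study's methods, the authors used Trimmomatic, FastQC and MultiQC on the reads, quantified transcripts with Salmon on GRCm39, summed them to genes and normalized them with DESeq2. The deposited values are therefore a signal, gene counts scaled for depth and transcript length, and not whole counts. A count test could not be run on them. The authors' own table of fold changes and p-values was not used.

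Values were fitted as log2(value + 1) with limma 3.58.1 in R 4.3.3, with genotype as the only term, a prior variance that follows expression and Benjamini-Hochberg adjustment over 16382 genes. A summed value above 5 was required, which left out none. A row with no gene name held 0.0112 to 0.0150% of each library and was left out. Depth came from the spacing of values under 60. Only 17.0 to 37.3% of these were whole reads within 0.01, so they were not turned into counts. Exact permutation tests used all 70 splits. The statistics were tested on simulated data. Sequences and lengths came from RefSeq GRCm38.p6 and GENCODE M21, another build than the authors', read with Python 3.11.15.

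The members, lists and tests were chosen with earlier results of these data known. Named genes are all members, the called genes of each list up to 4 (with 1 exception, not reported here), 6 heavy chains, the other light chain genes and the genes most like each member. Replicates are separate mice per the study. Alternatives were other scalings, added counts of 0.5 and 5, a minimum mean of 10, other prior variances, each library left out, KO replicates 2 and 3 left out, depth as a covariate and the replicate number as a block. The numbers did not pair the samples.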

Additional observations from a re-analysis of the deposited data

Results flagged for a closer look

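Among 120 checks for a library far from the other 3 of its genotype, 2 stood out, where chance gives about 1 in 20. None concerned a light chain or kinase gene. The type IIb heavy chain Myh4 had 3625 normalized counts in WT replicate 4, against 746 to 911 in the other WT libraries. The macrophage marker Cd68 had 129 normalized counts in WT replicate 4, against 161 to 167 in the other WT libraries.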

How the results depend on the processing

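Of the 9 genes, Myl4 was called under all 18 alternatives, Myl6 under 14, Myl3 under 10 and Myl6b under 6, each with its direction kept, and the other 5 under none. Higher and lower members numbered 1 and 0, in place of 3 and 1, under 3 settings: a prior variance without trend, KO replicates 2 and 3 both left out, and depth as a covariate. Leaving out KO replicate 3 alone gave the same 1 and 0. Lower members numbered 0 under either other scaling, library size alone or library size without the 10 most abundant genes. In the order of these settings, KO replicate 3 alone aside, all genes called were 562 higher and 257 lower, 121 and 43, 44 and 14, then 1279 and 321 with library size alone, and 333 lower without the 10 most abundant genes. Genes of the 7 pathway lists were 5 higher and 6 lower without trend, 3 and 5 without KO replicates 2 and 3, and 1 and 1 with depth. Median standard errors were 1.68 times as large with depth and 1.26 times without these replicates. The part of this loss of precision in the lower counts was not tested.

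With 1 library left out, higher members ranged from 1 to 3 and lower from 0 to 1, all genes from 419 to 719 higher and 243 to 512 lower, and list genes from 5 to 11 higher and 6 to 12 lower. KO replicate 3 gave the lowest count of all genes, 662 in place of 1466. The log2 fold change then ranged from -0.0398 to 0.114 for Myl1, -0.154 to 0.0158 for Mylpf, -0.0495 to 0.145 for Mylk2, -0.24 to 0.19 for Mylk4, -0.11 to 0.24 for Mylk3, -0.27 to 0.16 for Myh1 and -0.14 to 0.50 for Myh8. Log2 ratio differences ranged from 0.0597 to 0.159 for Myl1/Mylpf, 0.16 to 0.27 for Myl2/Mylpf, 0.43 to 0.91 for Myl6b/Myl6 and -0.25 to 0.0658 for Mylk4/Mylk2. As a difference of medians, Myl3/Myl2 was -0.46, Myl4/Myl3 2.79 and Myl4/Myl1 2.42, each with an exact permutation p of 0.0571, and Mylk4/Mylk2 was 0.10.

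Signs also turned in genes that were not called. With library size alone, Mylpf was at 0.0252, Mylk4 at 0.00811 and Myh1 at 0.0269, and without the 10 most abundant genes in that size these were 0.0221, 0.00505 and 0.0239. Without KO replicates 2 and 3 together, Myl1 was at -0.0331, Mylk2 at -0.0679, Myh4 at -0.87 and Myh8 at -0.62. With depth, Myh4 was at -0.57, Myh8 at -0.76 and Myl12b at -0.0630. The causes were not tested.

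Replicate numbers did not pair the samples: same-numbered KO and WT libraries had correlations of their deviations of 0.0232, -0.0102, 0.0332 and 0.00999. With the replicate block 1278 genes were called, 3 of the 4 called members passed, and Myl6b did not (limma, BH-adjusted p = 0.0664). The ratios to heavy chains and Tnnt3 were chosen after seeing the data.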
